A study of Mus musculus with 16 samples.

Results

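The regions described here are stretches of messenger RNA in which an m6A peak was called in none of the 4 livers of mice on a high-fructose diet (HFrD) and in at least 3 of the 4 livers of mice on a normal diet (ND). Peaks of all 8 mice that overlapped by at least 1 bp were merged into 17526 regions, and 313 of them met this rule. They are called leaning regions below. They were chosen by the presence of peaks in the lists of both diets, so their absence from HFrD mice and presence in ND mice is a description of how they were chosen and was not tested. They were split into 208 regions in 205 genes that kept another peak in at least 1 HFrD mouse, and 105 regions in 103 genes with no peak at all in any HFrD mouse.

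The mice were male C57BL/6J animals aged 10 to 11 weeks. For 2 weeks 4 of them ate HFrD, in which carbohydrate supplied 70% of the calories, protein 20% and fat 10%, and 4 ate ND, for which the labels give no composition. From the liver RNA of each mouse, fragments bound by an m6A antibody were sequenced beside the input, giving 16 libraries and 1 list of peaks for each mouse. The labels number the HFrD mice 1, 2, 5 and 7 and the ND mice 1, 3, 6 and 7.

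N6-methyladenosine, m6A, is the most abundant internal mark of messenger RNA. It is written by a nuclear methyltransferase complex at adenosines inside a short consensus, of which GGACT (in DNA letters) is a common form, and is typically dense in long exons and around stop codons. Reader proteins that bind the mark change how the transcript is spliced, exported, translated or degraded, and in the liver such marks sit on transcripts of lipid, glucose and insulin pathways.

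The sequences below show the GGACT nearest the middle of 12 leaning regions, chosen because the regions lie in genes discussed with their values further on. Each is read 5′ to 3′ on the transcript strand from GRCm38 (mm10), 25 nt long, with GGACT in capitals. The first 6 belong to genes with no peak in HFrD mice and the last 6 to genes that kept another peak.
Insr, exon 1 (chr8:3279285-3279309, minus strand): gctcttcccgGGACTgtccccaggg
Gpi1, exon 18 (chr7:34202295-34202319, minus strand): tagttggcctGGACTacaaggctgt
Arf6, exon 2 (chr12:69373264-69373288, plus strand): ctccggggacGGACTctatgagggg
Mief2, exon 4 (chr11:60731969-60731993, plus strand): aggtaaatgaGGACTgtaactgaca
Sgk2, exon 14 (chr2:163013618-163013642, plus strand): atctatgaacGGACTatattgctga
Slc25a5, exon 1 (chrX:36795750-36795774, plus strand): ccttcgccaaGGACTtcttggccgg
Lipc, exon 1 (chr9:70934705-70934729, minus strand): tgatagatttGGACTggagaaggta
Apoa4, exon 1 (chr9:46240790-46240814, plus strand): ttctgttcagGGACTcccctagact
Mtor, exon 48 (chr4:148545590-148545614, plus strand): ccctcatccgGGACTacagagagaa
Orm2, exon 4 (chr4:63364000-63364024, plus strand): gaagaaacggGGACTgtccctcaat
Snrk, exon 7 (chr9:122168419-122168443, plus strand): cgacgactccGGACTgatagctatc
Chtf8, exon 4 (chr8:106885172-106885196, minus strand): aggatcaggaGGACTgaacccaaat

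The 313 leaning regions were 1.79% of all regions, and 10.8% of the 2910 regions found in 3 or 4 of the 8 lists, the only ones that could meet such a rule. The opposite rule, at least 3 HFrD lists and no ND list, took 99 regions (0.565% of all and 3.4% of those in 3 or 4 lists). Of the leaning regions, 64 (0.365% of all regions) had a peak in all 4 ND mice and 249 in 3 of them. The HFrD lists held 8627, 9736, 10093 and 8055 peaks, against 8959, 9799, 10397 and 11517 in the ND lists. With only the 8055 best-scoring peaks of each mouse, the number in the shortest list, the rule took 164 regions and the opposite rule 170, and 93 of the 313 were still among the 164. With peaks of a score of at least 100 alone, 269 regions met the rule and 50 of the 313 were among them. A peak can be missing because a transcript was scarce or a library shallow as well as because it was less methylated, and reads and input levels were not analysed here.

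**Figure D1:**
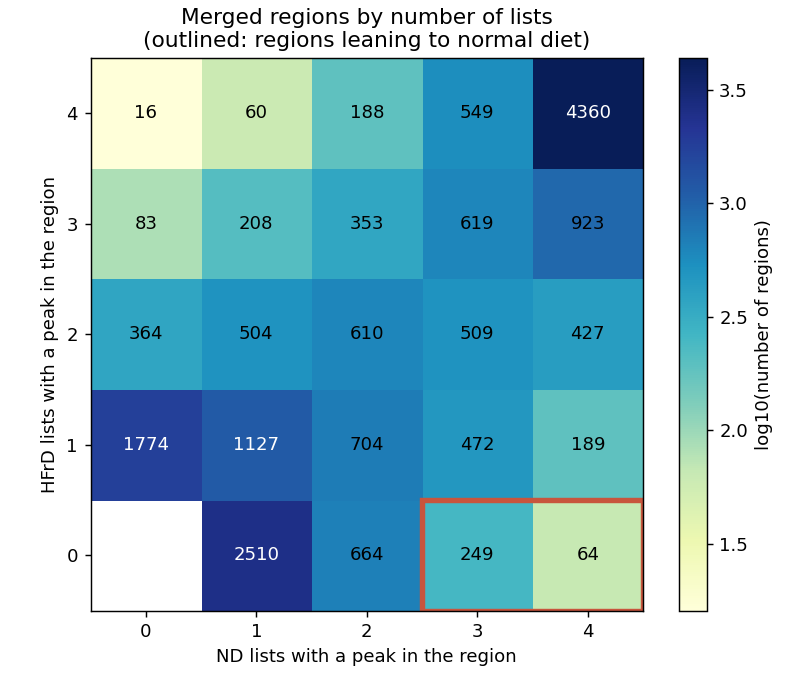
Number of merged regions by how many of the 4 HFrD lists (vertical axis) and of the 4 ND lists (horizontal axis) held a peak in them, with colour giving log10 of the count. The outlined cells are the leaning regions, 249 in 3 ND lists and 64 in 4, and the cells mirrored to the left edge hold 83 and 16 regions.

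Just outside the rule lay 664 regions with a peak in no HFrD mouse and 2 ND mice, 472 with 1 HFrD mouse and 3 ND mice, and 189 with 1 HFrD mouse and 4 ND mice. The fold enrichment of a peak, its immunoprecipitated signal over background, had a median over ND lists of 5.98 in leaning regions with 3 lists and 5.91 in those with 4. The medians just outside were 5.64, 6.21 and 6.46 in the same order. Regions on either side of the limit thus had median fold enrichments within 1 unit of each other.

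The ND mice did not contribute equally. ND mouse 1, with the shortest ND list, held 219 of the 313 regions, ND mouse 3 held 255, ND mouse 6 held 261 and ND mouse 7 held 268. Of the 249 regions in 3 ND lists, 94 lacked ND mouse 1, 58 lacked ND mouse 3, 52 lacked ND mouse 6 and 45 lacked ND mouse 7. The order of these counts is the order of the list lengths.

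Leaning regions ranked low in the lists of the ND mice. Within each list every peak was given the percentile of its score, a measure that grows as the peak's p-value falls. The median percentile of peaks in leaning regions was 24.9 ± 4.33, against 25 ± 2.28 for the other regions in 3 or 4 lists and 61.1 ± 2.89 for the other regions in at least 3 ND lists (SD, n = 4 ND mice). Median fold enrichment was 5.94 ± 0.06 in leaning regions, 6.08 ± 0.10 in other regions in 3 or 4 lists and 8.86 ± 0.32 in other regions in at least 3 ND lists (SD, n = 4 ND mice). The score percentiles of leaning regions and of other regions found in as few lists lay within the spread between mice. The median fold enrichment of leaning regions was the lower of the 2 in each of the 4 ND mice (5.93, 5.99, 5.97 and 5.86 in ND mice 1, 3, 6 and 7, against 6.1, 6.2, 6.07 and 5.95 in the other regions in 3 or 4 lists), and this difference was not tested. Over the leaning regions, 155 had a median percentile of at least 25, 24 of at least 50, 2 of at least 75 and 1 of at least 90.

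**Figure D2:**
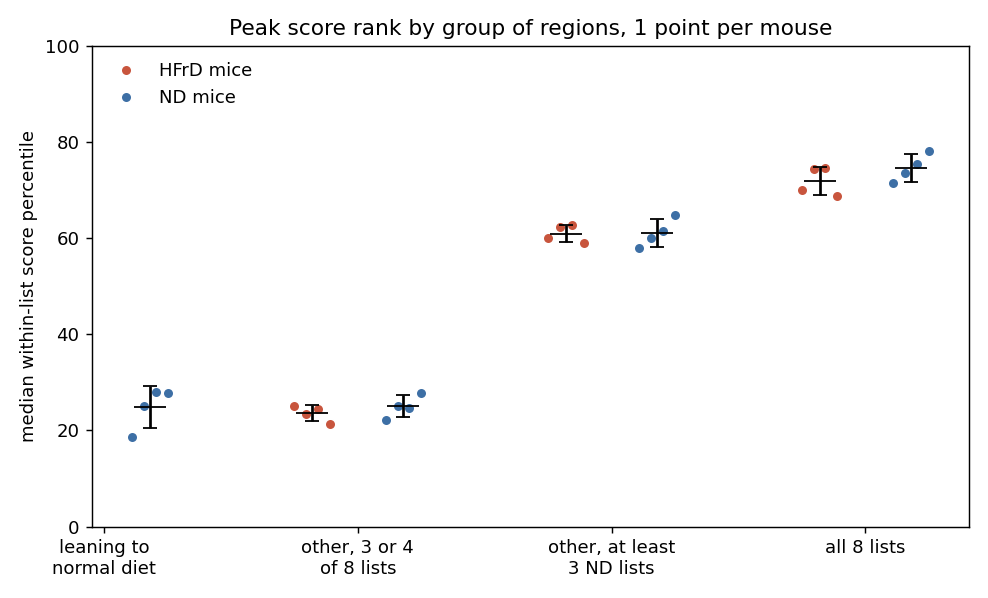
Median within-list percentile of the peak score for 4 groups of regions, 1 point for each mouse (HFrD red, ND blue), with the mean and SD over 4 mice in black. Leaning regions have peaks in ND mice alone and sit at 24.9, beside 25 for the other regions in 3 or 4 lists and below 74.6 ± 2.83 in ND mice for the regions in all 8 lists.

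Among the ND mice with a peak there, fold enrichments of a given leaning region agreed within a factor of 2 for most regions. The highest ND value was 1.44 times the lowest at the median region (quartiles 1.25 and 1.67), and it was more than 2 times the lowest in 24 of 313. Single peaks lay between 2.47 and 31.9. A median fold enrichment of 10 or more was reached by 12 regions, and 73 had 5 or less.

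The deposited peaks followed exon borders. Of the peaks with a transcript model, 71.0% covered exactly 1 whole exon and 5 of 71530 touched more than 1, so a region below means an exon or a piece of one. Among leaning regions, 73.9% of 310 with a model covered a whole exon, and widths lay between 38 and 4154 nt. A gene that kept a peak therefore kept it, as a rule, in another exon.

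Leaning regions in genes that kept a peak and in genes that lost all peaks differed in where they lay. In genes that kept a peak, 55.1% of the 207 placed regions were internal exons, 21.7% first exons and 23.2% last exons, and the median width was 244.5 nt. In genes that lost all peaks, 22.3% of 103 were internal, 33.98% first and 43.7% last, and the median width was 617 nt. The other regions in 3 or 4 lists had 52.6% internal, 22.0% first and 25.4% last exons, and a median width of 255.5 nt. The 2 classes also differed in their transcripts, with a median of 13 exons where a peak was kept and 7 where none was. The part of exon number in the difference was not tested.

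Codon position was read from the midpoint of each region, so a wide region can also reach into another segment. By this measure, 41.6% of the placed regions in genes that lost all peaks were within 200 nt of the stop codon or in the 3′UTR. The shares were 25.1% in genes that kept a peak and 23.6% of the other regions in 3 or 4 lists. The start codon segment held 33.7% of the regions in genes that lost all peaks and 25.6% in genes that kept one, beside 25.5% of the other regions. Coding sequence more than 200 nt from both codons held the midpoints of 22.8%, 45.9% and 46.2% in the same order. Over both classes together, 30.5% of leaning regions lay at the stop codon or in the 3′UTR.

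GGACT was present in 38.1% of leaning regions, made up of 51.5% in genes that lost all peaks and 31.4% in genes that kept one, against 33.9% of the other regions in 3 or 4 lists and 42.4% of the regions in all 8. Counted per length, leaning regions held 1.24 GGACT per 1000 nt on the transcript strand and 1.25 on the opposite strand, and the other regions in 3 or 4 lists held 1.15 and 0.985. The wider consensus DRACH (D is any base but C, R a purine and H any base but G), of which GGACT is a form, occurred 18.6 times per 1000 nt in leaning regions and 20.3 times in the others. GGACT itself occurred 1.31 times per 1000 nt in genes that lost all peaks and 1.17 times in genes that kept one, and the difference was not tested. Median GC content was 55.4% in leaning regions and 52.5% in the others.

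**Figure D3:**
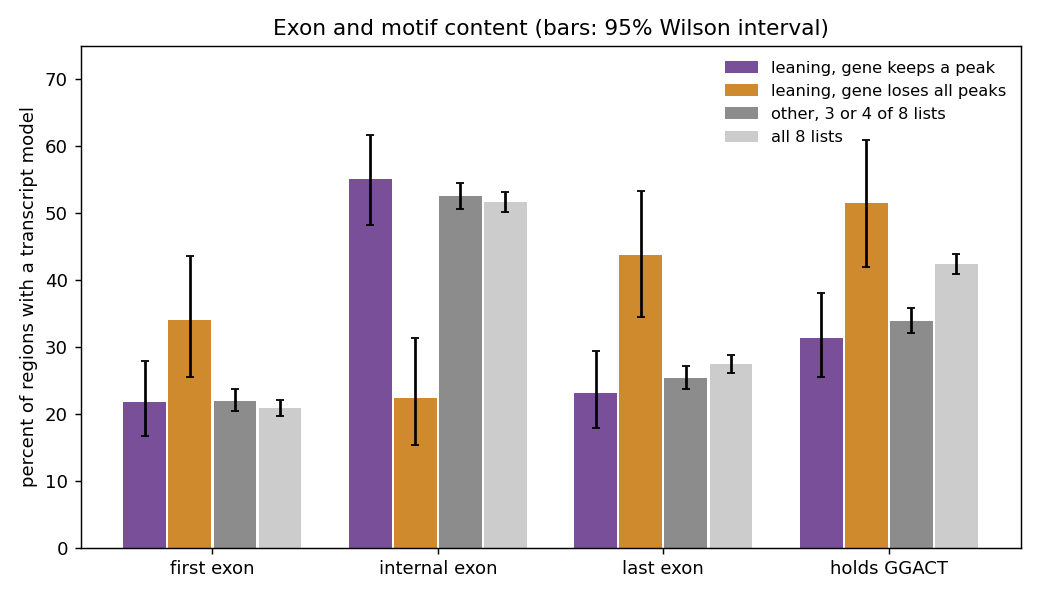
Percent of regions that are a first, internal or last exon, and percent holding GGACT, for leaning regions in genes that keep a peak (208 regions, 207 placed), leaning regions in genes that lose all peaks (105 regions, 103 placed), other regions in 3 or 4 lists and regions in all 8 lists. Bars end at 95% Wilson intervals, which cover counting error alone, and the class that loses all peaks stands at 43.7% last exons beside 23.2% in the class that keeps one.

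Among genes with no peak in HFrD mice, metabolic and insulin signalling genes were represented by Insr, Me1, Gpi1, Sgk2 and Ces2b. Insr, the insulin receptor, had its region in exon 1 of 21, which holds the start codon (chr8:3279029-3279617, 589 nt), with fold enrichments of 5.66 in ND mouse 3, 4.97 in ND mouse 6 and 3.96 in ND mouse 7. ND mouse 1 had no peak there, as in the HFrD mice. Me1, the cytosolic malic enzyme that supplies NADPH for fatty acid synthesis, had peaks over exon 1 of 14 (chr9:86695673-86695914) of 12.9 in ND mouse 1, 11.2 in ND mouse 3 and 11.9 in ND mouse 7. These were among the highest fold enrichments of any leaning region, and the 3 mice with a peak differed little. ND mouse 6 had no peak over this exon.

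Gpi1, the glucose-6-phosphate isomerase of glycolysis, carried a peak in its last exon, 18 of 18, in all 4 ND mice (chr7:34201730-34202549). Its fold enrichments were 5.72, 6.02, 4.74 and 4.64 in ND mice 1, 3, 6 and 7. Sgk2, a kinase of the serum- and glucocorticoid-regulated family, had values of 6.28, 5.46 and 5.26 in the last exon in ND mice 1, 3 and 6. Ces2b, a carboxylesterase, had 9.24, 18.7 and 6.57 in ND mice 3, 6 and 7, a wider spread than in the other 4 genes. The paper lists the mRNA of Ces2b as lower and that of Me1 as higher in HFrD mice. Transcript levels were not analysed here, and their part in the missing peaks was not tested. Insr, Me1 and Gpi1 also met the rule with lists of equal length and with scores of at least 100, and Sgk2 and Ces2b met it in neither.

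Of the other genes in this class, Arf6, a small GTPase of endocytic recycling, had one of the widest regions, its 3657 nt last exon (chr12:69372324-69375980), with 11.1, 11.2 and 11.4 in ND mice 3, 6 and 7. Rab43, a small GTPase of Golgi traffic, had 8.54, 10.6 and 10.5 in exon 1 in ND mice 1, 3 and 7. Mief2, a mitochondrial outer membrane protein that recruits the fission GTPase, had 9.76, 8.25, 12.9 and 6.11 in ND mice 1, 3, 6 and 7 over its last exon, which holds 5 GGACT. Slc25a5, a mitochondrial ADP/ATP carrier, had 3.66, 6.03, 3.76 and 5.29 in exon 1 in the same mice. The first 3 were listed well above the usual score of leaning regions, at median percentiles of 69.6, 60.5 and 59.6.

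Further regions in all 4 ND mice and in genes without any HFrD peak lay in Spsb4, a substrate adaptor of ubiquitin ligases, with 11.6, 19.8, 6.47 and 8.84 in ND mice 1, 3, 6 and 7. Aqp11, an intracellular aquaporin, had 5.57, 5.03, 6.22 and 4.02 in the same mice. Dohh, the enzyme that completes hypusine on a translation factor, had 9.70, 8.35, 12.2 and 6.50. All of these met the rule with equal list lengths too. The paper lists the mRNA of Spsb4 as lower in HFrD mice.

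Klhl21, a substrate adaptor of CUL3 ubiquitin ligases, and Slc22a23, a member of the organic ion transporter family, had 2 leaning regions each and no peak elsewhere in HFrD mice. In Klhl21 the regions were exons 1 and 2 of 4, both in all 4 ND mice, with 5.33, 4.39, 7.47 and 4.51 in exon 1 and 4.05, 4.38, 6.37 and 6.56 in exon 2 for ND mice 1, 3, 6 and 7. In Slc22a23 they were exons 1 and 11 of 11. With equal list lengths exon 2 of Klhl21 and exon 11 of Slc22a23 met the rule, and with scores of at least 100 none of the 4 regions did. Of the 103 genes without a HFrD peak, 73 had a single region in the whole data set, which is the leaning one, and 30 had another region in at least 1 ND mouse.

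**Figure D4:**
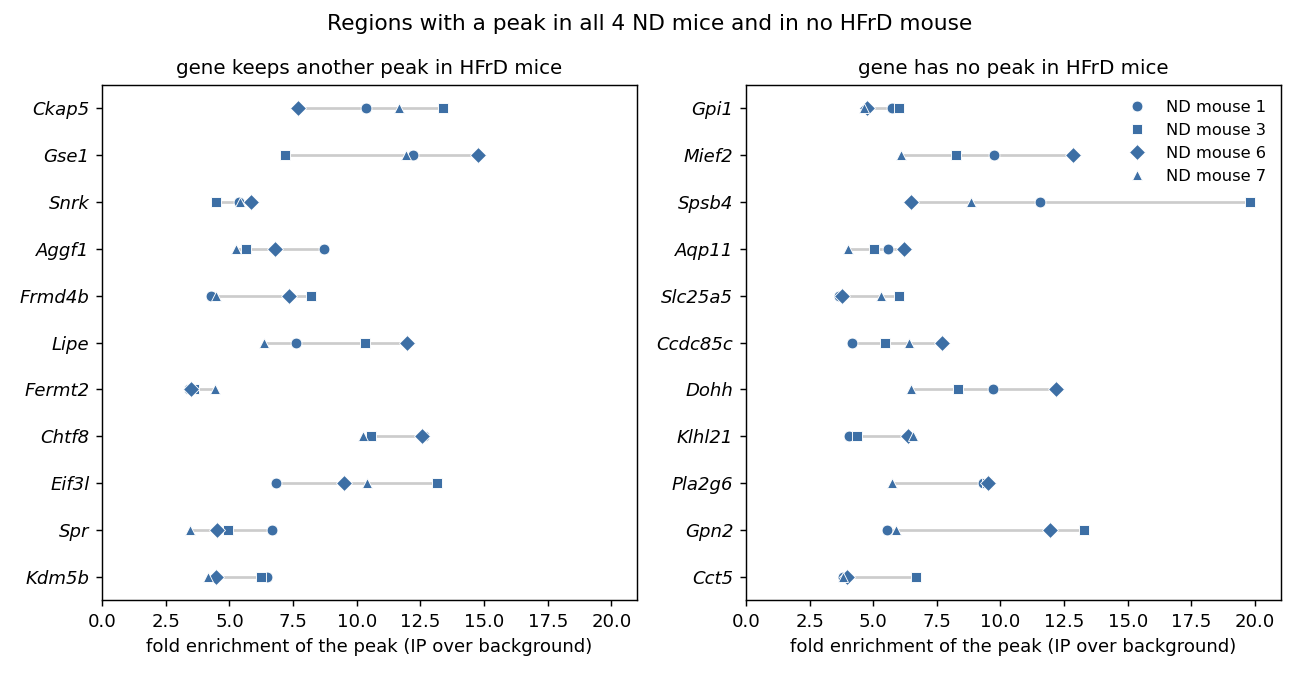
Fold enrichment of the peak in ND mice 1, 3, 6 and 7 (horizontal axis, linear, from 0) for 11 leaning regions of high median score percentile found in all 4 ND mice, in genes that keep another peak in HFrD mice (left) and for 11 in genes with none (right). HFrD mice have no peak in these regions and so no value, and values of 1 region differ by up to 3.06 times, in Spsb4.

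Among genes that kept another peak in HFrD mice were genes of lipid uptake, lipid droplets and lipoproteins. Lipe, hormone-sensitive lipase, had peaks in its last exon, 10 of 10, of 7.63, 10.3, 11.98 and 6.34 in ND mice 1, 3, 6 and 7 (chr7:25379571-25380173). Exon 9 next to it had peaks of 8.26 and 5.27 in HFrD mice 5 and 7 and in no ND mouse. Lipc, hepatic lipase, had 5.23, 4.86 and 5.95 in exon 1 in ND mice 3, 6 and 7. Lrp1, an endocytic receptor for lipoprotein remnants, had 3.99, 5.55 and 6.31 in exon 11 of 89 in ND mice 1, 6 and 7. Apoa4, an apolipoprotein of lipid-rich particles, had 2.53, 2.88 and 3.28 in exon 1 in ND mice 3, 6 and 7, near the lowest fold enrichment of any leaning region. Lipe met the rule with equal list lengths and with scores of at least 100, and Lipc, Lrp1 and Apoa4 met it in neither.

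Gys2, the glycogen synthase of liver, had 5.87, 5.98, 5.35 and 6.50 in exon 16 of 17 in ND mice 1, 3, 6 and 7. Acacb, an acetyl-CoA carboxylase whose product restrains fatty acid oxidation, had 5.31, 5.72 and 5.96 in exon 16 of 52 in ND mice 1, 6 and 7, at a median percentile of 4.68. Mtor, the kinase of the nutrient-sensing complexes, had 5.75, 8.52 and 8.76 in exon 48 of 58 in ND mice 3, 6 and 7. Its nearest HFrD region on the transcript lay 5546 nt away, 41 exons apart. Stat5b, a transcription factor downstream of growth hormone, had 4.66, 5.74 and 6.11 in exon 9 of 19 in ND mice 1, 3 and 7. Adipor1, an adiponectin receptor, had 6.52, 8.37 and 8.02 in exon 1 in ND mice 3, 6 and 7, and its exon 2 had a peak in 3 HFrD and all 4 ND mice. Mtor and Stat5b met the rule with equal list lengths alone, Gys2 with scores of at least 100 alone, and Acacb and Adipor1 in neither.

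Hnrnpa2b1, an RNA-binding protein described as a reader of m6A, had 5.09, 6.87 and 5.98 in exon 1 in ND mice 1, 3 and 6. Epas1, the hypoxia-inducible factor 2 alpha, had 10.0, 8.74 and 11.6 in exon 1 in the same mice. Bhlhe41, a repressor of the circadian clock, had 6.89, 7.96 and 11.1 in exon 1 in ND mice 1, 6 and 7. Kdm5b, a demethylase of histone H3, had 6.46, 6.23, 4.47 and 4.14 in exon 25 in ND mice 1, 3, 6 and 7, and its exon 26 had a peak in all 8 mice. Bhlhe41 met the rule with equal list lengths and with scores of at least 100, Hnrnpa2b1 with equal list lengths alone, and Epas1 and Kdm5b in neither.

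Several regions with a peak in all 4 ND mice and a high score lay in genes of other functions. Ckap5, a microtubule polymerase, had 10.4, 13.4, 7.69 and 11.7 in ND mice 1, 3, 6 and 7 in its 76 nt exon 37, at a median percentile of 86.1. Gse1 had 12.2, 7.19, 14.8 and 11.9 in exon 14 in ND mice 1, 3, 6 and 7. Snrk, a kinase related to AMPK, had 5.37, 4.48, 5.83 and 5.43 over a last exon of 3467 nt, and Chtf8, a subunit of a clamp loader, had 12.6, 10.6, 12.6 and 10.3 over a last exon that held 10 GGACT. Both last exons lay in genes with other peaks in all 4 HFrD mice.

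How far the kept peak lay from the leaning region varied. For 199 of the 208 regions the nearest region with a HFrD peak was on the same transcript model, at a median distance of 131 nt. It lay in the same exon in 3 cases, in the next exon in 76 and at least 2 exons away in 120. Of the 79 in the same or next exon, the neighbouring region had a peak in more HFrD than ND mice in 17, in fewer in 29 and in as many in 33. Ndufa13, a subunit of mitochondrial complex I, was the one with the largest difference. Its exon 1 had no peak in HFrD mice, against peaks of 9.90, 14.7 and 9.63 in ND mice 1, 3 and 6. Its exon 2 had peaks of 4.63, 5.29, 5.12 and 4.13 in HFrD mice 1, 2, 5 and 7, against 9.81 in ND mouse 7 alone. Every mouse therefore had a peak in 1 of the 2 adjoining exons and none had one in both.

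Of the 205 genes that kept a peak, the number of HFrD mice that held it also varied. For 124 regions the gene had a peak in all 4 HFrD mice, for 28 in 3, for 15 in 2 and for 41 in 1. Ckap5 had another peak in 1 HFrD mouse and Acacb in 4.

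The lists of gene groups place these names among all genes with a region. Over all of them, 308 of 7693 genes (4.004%) held a leaning region. Lipid uptake, droplet and lipoprotein genes had 5 of 19 (Apoa4, Lipc, Lipe and Lrp1 among them), all of them in genes that kept another peak. Insulin, AMPK and growth hormone signalling had 4 of 29 (Insr, Mtor, Sgk2 and Stat5b), glycolysis and glucose metabolism 2 of 15 (Gpi1 and Gys2), lipogenesis 2 of 13 (Acacb and Me1) and the circadian clock 2 of 18 (Bhlhe41 and Usp2). Xenobiotic metabolism had 1 of 11 (Ces2b), the m6A writers, erasers and readers 1 of 16 (Hnrnpa2b1) and the acute phase and complement 1 of 21 (Orm2). The region of Orm2, which encodes an acute-phase plasma protein, was exon 4 of 6, with 5.59, 10.6 and 7.69 in ND mice 3, 6 and 7. Fatty acid oxidation had 0 of 13, sterol and bile acid genes 0 of 14, interferon and antigen presentation 0 of 19, and unfolded protein and oxidative stress genes 0 of 19. With peaks in all 4 ND mice required, the genes of these lists with a leaning region numbered 3, which were Gpi1, Lipe and Gys2, in place of 18.

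Larger families gave shares on both sides of that of all genes. Kinases and phosphatases of the MAP kinase cascade had 3 of 41, and collagens, laminins, integrins and ADAM proteases 1 of 45. Rab, sorting nexin and coat proteins had 5 of 121. Solute carriers had 5 of 121, ubiquitin ligases and proteases 7 of 151, splicing factors and RNA helicases 5 of 101, and chromatin enzymes 4 of 74 (Bptf, Chd4, Ep400 and Kdm5b). Zfp zinc finger genes had 1 of 220 (Zfp715). No test was made of any list, since the members and the lists were chosen with results of these data known.

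Markers of liver cells were read from the same lists as a check of the tissue. Of 19 hepatocyte markers 11 had a peak in at least 1 mouse, 5 to 7 in a HFrD mouse and 5 to 8 in a ND mouse, and Alb, Cps1 and Cyp2e1 had none, which a list of m6A peaks does not show to be unexpressed. A leaning region lay in 1 Kupffer cell marker (Cd5l, a secreted macrophage protein with 5.45, 6.01 and 6.18 in exon 4 in ND mice 3, 6 and 7). None of the 12 endothelial, 10 stellate cell, 4 cholangiocyte and 3 lymphocyte or neutrophil markers with a peak held one.

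Other regions of the same genes that had a peak in all 8 mice allowed a test that the rule had not used. There were 183 of these companion regions in 103 genes. With limma, log2 fold enrichment was compared between the diets over all 4360 regions with a peak in all 8 mice. Each list was centred on its median. A region that lost its peak in any mouse could not enter the fit, so such losses are outside this test. No companion region passed a Benjamini-Hochberg adjusted p of 0.05 in either direction, and none of the 4360 did (0% called, with 408 or 9.36% at an unadjusted p under 0.05). Among the companions 14 (7.65%) had an unadjusted p under 0.05, 4 higher and 10 lower in HFrD mice. Their median log2 difference, HFrD minus ND, was -0.04, beside 0.00 over all 4360, and 102 of the 183 were below 0.

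Dap, which encodes a death-associated protein, had the companion region of smallest p, at its start codon (chr15:31235773-31235869). Its fold enrichments were 13.6, 17.3, 14.8 and 8.81 in HFrD mice 1, 2, 5 and 7, against 24.9, 28.1, 31.9 and 32.4 in ND mice 1, 3, 6 and 7. The log2 difference was -1.05 ± 0.21 (SE, limma adjusted p = 0.137). With log2 score in place of log2 fold enrichment the same region had a difference of 0.24. The leaning region of Dap was its last exon, with 3.60, 3.52 and 3.38 in ND mice 1, 3 and 6.

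Specc1l, a cytoskeletal linker protein, had a companion coding exon with 9.80, 10.8, 9.85 and 10.2 in HFrD mice 1, 2, 5 and 7, against 5.39, 7.63, 6.42 and 6.34 in ND mice 1, 3, 6 and 7. The log2 difference in Specc1l was 0.76 ± 0.20 (SE, limma adjusted p = 0.278). Ppp1r37, a regulatory subunit of protein phosphatase 1, and Ncoa2, a coactivator of nuclear receptors, had log2 differences of -0.57 ± 0.20 and -0.72 ± 0.28 (SE, limma adjusted p = 0.434 and 0.463).

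**Figure D5:**
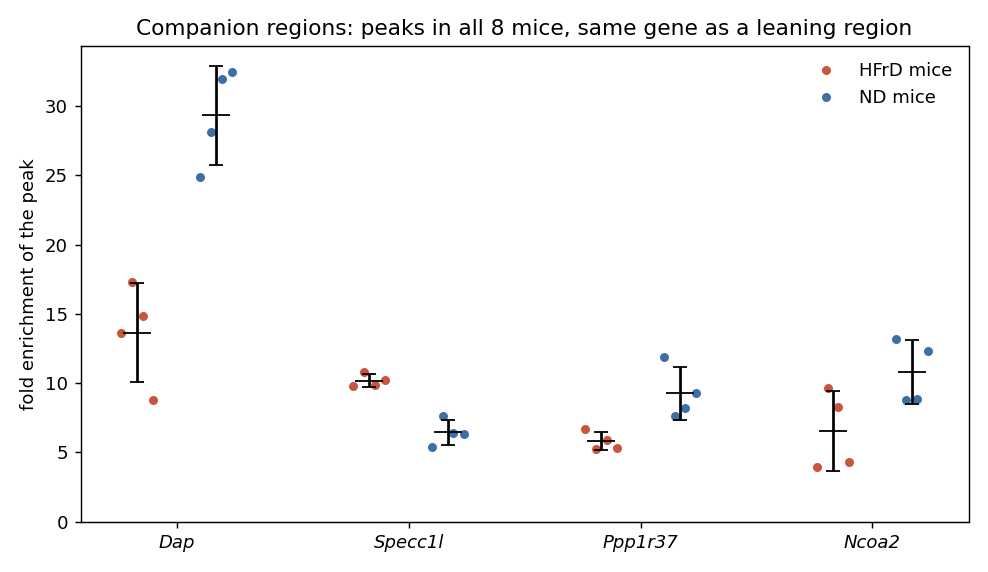
Fold enrichment (vertical axis, linear, from 0) in HFrD mice (red, left) and ND mice (blue, right) for 4 of the companion regions of smallest p, with mean and SD over 4 mice in black. On average the HFrD values are lower than the ND values in Dap, Ppp1r37 and Ncoa2 and higher in Specc1l, and no region passed the adjusted threshold.

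Companion regions of the lipid genes had smaller differences. The start codon region of Lrp1 had a log2 difference of -0.28 ± 0.19, the coding region of Apoa4 one of -0.14 ± 0.19 and the stop codon region of Lipc one of -0.08 ± 0.26 (SE, limma adjusted p = 0.678, 0.859 and 0.951). These genes thus had a leaning exon listed in ND mice alone beside another exon whose difference was within 2 standard errors of 0. For Apoa4 the paper, from its own test on reads, reports an m6A site and the mRNA both higher in HFrD mice. The ratios used here did not show such a rise for Apoa4, and the reason was not tested.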

How the data were processed

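Per the submitters' notes, cutadapt 1.9.3 trimmed the reads and HISAT2 2.0.4 aligned them to mm10. MACS peaks were called by the authors in each mouse and kept on exons of messenger RNA. Its version and settings were not given in the sources used here. A score deposited for a peak is the negative log10 of its p-value times 10 (lowest 50). The fold enrichment deposited with it is a ratio of signal to background, and the deposited false discovery rate, in percent, was not used. Starts count from 0, so 1 was added. Read depth is unknown, and list length is the only measure of yield.

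Mice were grouped by labelled diet. Regions, features and gene lists were described without a test. The members and lists were chosen with earlier results of these data known. Transcript models were RefSeq's or GENCODE M21's for GRCm38, and sequences are RefSeq's. Companion regions were compared with limma 3.58.1 (R 4.3.3) on the log2 of the highest fold enrichment per list, with no pseudocount. The study's own test ran on reads, which were not used here.

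The regions named were, in each class, the 12 in all 4 ND lists and the 4 in 3 lists of highest median score percentile, members in the gene lists, genes with 2 members, those nearest to and farthest from a HFrD region, and the 5 companions of smallest p. Not every one is printed, and some are not reported here. Alternatives were a minimum fold enrichment of 3, a minimum score of 100, equal list lengths, merging within 100 bp, all 4 ND lists, each mouse left out, mice 1 and 7 alone, and a kept peak in at least 3 HFrD lists. For limma they were no centring, quantile normalization, mean fold enrichment, log2 score and a median fold enrichment of at least 3. Both calculations were run on simulated data. With each region's presence drawn at the same rate in both diets, the rule still took 128 of 17526 regions. With 200 regions planted in the ND lists alone, 185 were recovered and 148 others were counted. Of 200 planted log2 differences, limma recovered 64% at a size of 1 and 98.5% at 2. A difference of 1 in a companion region can thus be missed. Python 3.11.15, pandas 2.3.3 and matplotlib 3.10.9 were used.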

Additional observations from a re-analysis of the deposited data

Results flagged for a closer look

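Among 50 groups of 4 values examined with Dixon's test at the 95% level, 3 held a value far from the other 3, and chance gives about 1 group in 20. In the Fermt2 region (an integrin activator, gene keeps a peak) ND mouse 7 had a fold enrichment of 4.43, against 3.43, 3.48 and 3.60 in ND mice 1, 6 and 3. In the Pla2g6 region (a phospholipase, no peak of the gene in HFrD mice) ND mouse 7 had 5.74, and the other ND mice had 9.30, 9.49 and 9.50. In the Cct5 region (a chaperonin subunit, no peak of the gene in HFrD mice) ND mouse 3 had 6.69, and the other ND mice had 3.80, 3.80 and 3.99.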

How the results depend on the processing

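The 313 leaning regions (208 in genes that keep a peak, 105 in genes that lose all) became 164 (99 and 65) with equal list lengths, where the opposite rule took 170, and 64 (42 and 22) with all 4 ND lists required, which leaves fewer regions by construction. With a score of at least 100 they were 269, and genes of the pathway lists fell to 11 of 18, and to 3 with all 4 ND lists. With each mouse left out they ranged between 403 and 783 (264 to 538 and 139 to 245), with 19 to 27 genes of the pathway lists, since the rule then asks for fewer lists. Requiring a kept peak in 3 HFrD lists gave 161 regions in genes that lose all peaks. Mice 1 and 7 of both diets, as a replicate block with no HFrD list and both ND lists, gave 854 regions (509 and 345), 190 by the opposite rule, and no companion called. The labels do not say that the shared numbers pair the mice, and the 2 shared numbers allow no check of it. The planned overlap of 50% in either direction changes nothing, as a peak lies inside its region. A peak covering 50% of its region, added after seeing the data, gave 319.

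Features moved as follows. With all 4 ND lists, 66.7% of regions were whole exons, 47.6% held GGACT, the median score percentile was 29.5 and the median peak width 429.75 nt. With a score of at least 100, 25.1% lay at the stop codon or in the 3′UTR, the percentile was 45.4 and the width 367.6 nt. With equal list lengths, 34.6% lay at the start codon, the percentile was 38.8 and the width 302.9 nt. With each mouse left out, 23.5% to 34.1% lay at the stop codon or in the 3′UTR, 36.6% to 47.0% in the coding sequence, and the width was 245.2 to 351.75 nt. Companions called numbered 0 under every alternative of the limma fit. The Dap companion turned to 0.24 with log2 score, and the cause was not tested. Without centring the median of the 4360 regions was -0.09. Of the peaks in leaning regions, 66.2% in ND mouse 1 and 45.5% in ND mouse 7 had a score under 100. In the other regions in 3 or 4 lists these shares were 64.1% and 46.1%. The part of list length and peak score in the count of leaning regions was not tested.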
